A study of Bos taurus with 21 samples.

Results

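The change in endometrial transcripts between day 13 and day 16 of pregnancy was described in 10 heifers, 5 at each day, out of 20 heifers in the series. The endometrium is the lining of the uterus. The day 13 group held pregnant heifers 2, 9, 11, 14 and 20, and the day 16 group held pregnant heifers 1, 4, 6, 12 and 19, numbered as in the sample labels. All were cross-bred beef heifers, mostly Charolais and Limousin crosses, whose cycles had been synchronised with a vaginal progesterone device and a prostaglandin analogue before insemination. A heifer entered a pregnant group only if a conceptus of the proper stage was flushed from the uterine horn nearest the corpus luteum. The 10 cyclic heifers that serve as a comparison, 5 at day 13 and 5 at day 16, had the same synchronisation and were not inseminated. The labels do not give the ages of the heifers. The tissue was strips of endometrium, mostly from between the caruncles where the placenta later attaches, so it mixes epithelium, stroma, vessels and leukocytes. In such a mixture fewer cells of a type and less RNA per cell cannot be told apart.

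Around day 13 the bovine conceptus begins to change from a sphere to a filament, and by day 16 it is elongating and secretes interferon tau. Interferon tau acts on the endometrium, where it induces a large family of interferon-stimulated genes and prevents the release of the prostaglandin that would end the life of the corpus luteum. Progesterone from the corpus luteum changes the endometrium over the same days whether or not a conceptus is present, and glandular secretions that feed the conceptus change with it.

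The values are read counts for 28054 Ensembl bovine transcript identifiers. The files give no gene name beside an identifier, and 0 identifiers were found in the reference gene table. The results are therefore given for transcripts by abundance and by size of change, 4 identifiers are printed, and neither sequences nor a check of the tissue against its marker genes is given. Total counts ran from 1677742 to 3764342 in the day 13 and from 1256870 to 3257988 in the day 16 pregnant heifers. Values in CPM are counts scaled to a common library total, and 3 counts, taken as the floor of detection, corresponded to 0.803 to 2.37 CPM in these 10 heifers. Each heifer had 1 library, except heifer 12, which had 2. Library 2 of heifer 12 lay closer to the library of heifer 19 than any other pair of libraries did, by a chi-square statistic of their counts divided by its degrees of freedom, which was 2.001 for this pair and 3.30 for the next of 210 pairs. Between the 2 libraries of heifer 12 it was 6.85, the 51st lowest. Library 1 alone was used for heifer 12, and counts with the sum are given beside the main ones.

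Between day 13 and day 16 of pregnancy rises and falls were nearly balanced in number. Of 14826 transcripts tested, 274 rose (1.85%) and 313 fell (2.11%), together 3.96% (quasi-likelihood test of edgeR, p adjusted by Benjamini-Hochberg and under 0.05). Before adjustment 2504 transcripts had a p under 0.05. The median log2 fold change, day 16 over day 13, was 1.07 among transcripts that rose and -0.96 among those that fell, against 0.0037 over all transcripts tested. The quartiles of the fitted changes were 0.70 and 1.78 in the list that rose, and -1.35 and -0.66 in the list that fell. The lowest day 16 heifer lay above the highest day 13 heifer in 193 of the 274 that rose, and the reverse held in 234 of the 313 that fell. The heifers of the 2 days were separated in this way for 4.65% of all transcripts tested, 2.14% being higher and 2.50% lower at day 16.

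**Figure D1:**
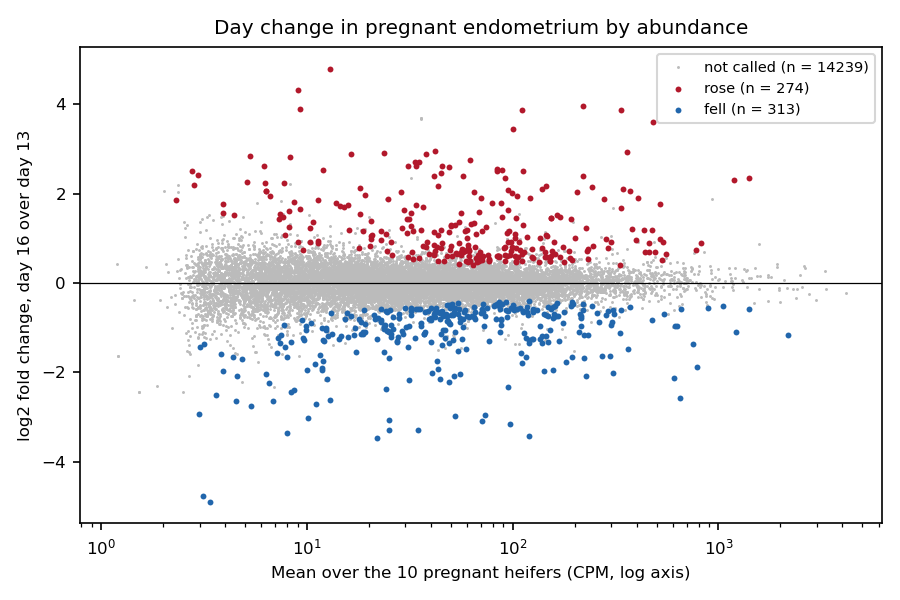
Each point is 1 of 14826 transcripts, with its mean over the 10 pregnant heifers in CPM on a log axis and its fitted log2 fold change, day 16 over day 13. The 274 that rose and the 313 that fell lie on both sides of 0 across the range of abundance, and the smallest changes that were called lie between 20 and 500 CPM.

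The count of calls depended on heifer 6 of the day 16 group. Without this heifer 165 transcripts rose and 203 fell, and without any other single pregnant heifer 203 to 291 rose and 213 to 337 fell. With the 2 libraries of heifer 12 summed 334 rose and 354 fell, of which 270 and 306 were among the 274 and 313. Because library 2 lay closest to heifer 19, the sum may not be independent of heifer 19, and its part in the larger counts was not tested. With heifers 12 and 19 both left out, a check added after the data had been seen, 285 rose and 216 fell. All 587 fitted changes kept their sign without each pregnant heifer in turn. This was close to fixed in advance, since the same heifers chose the calls and most calls separated the 2 days.

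The share of transcripts called increased with abundance. Transcripts were placed in 5 classes by their mean over the 10 pregnant heifers. Under 5 CPM 7 of 1165 transcripts rose and 12 fell, which is 1.63% of those tested. At 5 to 20 CPM the share was 2.19% of 4381, at 20 to 100 CPM 4.27% of 6786, at 100 to 500 CPM 7.01% of 2284, and at 500 CPM and over 10.5% of 210, where 9 rose and 13 fell. The share increased from each class to the next in both directions. With classes by the mean over all 20 heifers this held for falls but not for rises. The share that rose was then 3.07% at 100 to 500 CPM and 2.91% at 500 CPM and over. The median standard error of the log2 fold change over all transcripts in a class was 0.39 under 5 CPM, 0.14 at 100 to 500 CPM and 0.15 at 500 CPM and over. The smallest change called was 1.36 log2 units under 5 CPM, 0.41 at 100 to 500 CPM and 0.51 at 500 CPM and over. Small changes of rare transcripts were thus not called with these heifers and counts, and the part of depth in this was not tested. Fitted changes of at least 2-fold upward were found in 2.92% of all transcripts under 5 CPM, in 1.19% at 20 to 100 CPM and in 1.90% at 500 CPM and over. Downward they were found in 4.72%, 0.958% and 2.86%.

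**Figure D2:**
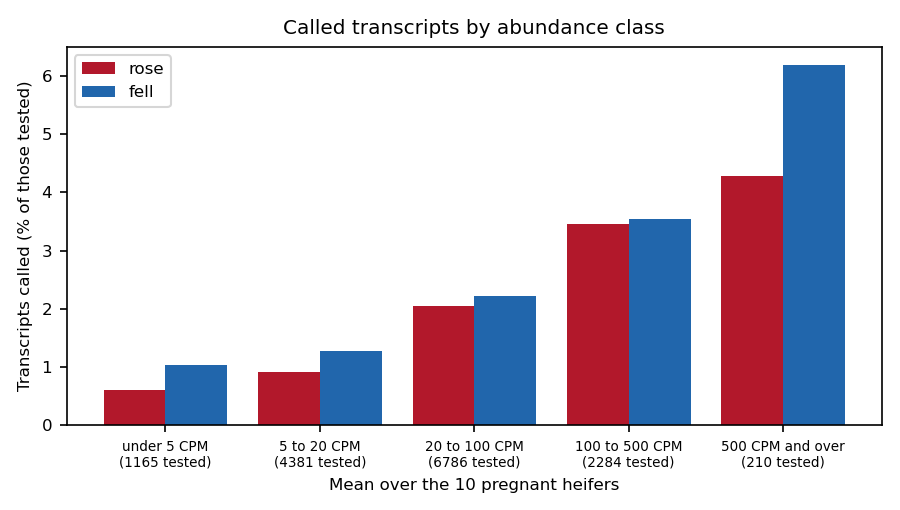
Bars give the percentage of tested transcripts that rose or fell in each class of mean abundance over the 10 pregnant heifers, with the number tested under each class. Both bars increase from the class under 5 CPM, where 1.63% were called in all, to the class of 500 CPM and over, where 10.5% were called.

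Changes of all sizes were called in both directions. Of the transcripts that rose, 35 changed by less than 1.5-fold, 94 by 1.5 to 2-fold, 90 by 2 to 4-fold and 55 by 4-fold and over. Of those that fell, the numbers were 44, 124, 107 and 38. The 4-fold class thus made up 20.1% of the list that rose and 12.1% of the list that fell. The difference between these shares was not tested, and the order of the numbers was not stable. Without day 13 heifer 9 there were 39 rises and 41 falls of 4-fold and over, and with no filter on low counts 54 and 54. Among transcripts that rose by 4-fold and over, the median of the group means went from 13.52 CPM at day 13 to 76.2 CPM at day 16. Among those that fell by 4-fold and over it went from 43.0 to 4.56 CPM. A further 16 transcripts had a fitted change of 4-fold and over and did not pass the test, 8 in each direction, with a median abundance of 3.73 CPM and a median standard error of 0.91.

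Abundant transcripts carried these changes as well as rare ones. The 274 transcripts that rose took 1.89% ± 0.287 (SD, n = 5) of all counts at day 13 and 4.36% ± 0.708 (n = 5) at day 16. The 313 that fell took 4.66% ± 0.363 (n = 5) at day 13 and 2.32% ± 0.228 (n = 5) at day 16. These libraries chose the lists, so the shares are a description. No single transcript held most of either share, since the 10 most abundant held 24.3% of the CPM of the list that rose at day 16 and 29.6% of the list that fell at day 13. Of the gain in share among transcripts that rose, the 55 of 4-fold and over went from 0.213% to 1.22% of the counts, and their day 13 share was 0.133% without heifer 14. The 90 of 2 to 4-fold went from 0.415% to 1.09%, and the 94 of 1.5 to 2-fold from 0.930% to 1.57%. Of the loss among those that fell, the 107 of 2 to 4-fold went from 1.66% to 0.652%, and the 38 of 4-fold and over from 0.470% to 0.0873%.

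The most abundant transcript that rose was ENSBTAT00000012035. At day 13 it had 180 CPM in heifer 11, 220 in heifer 2, 262 in heifer 20, 312 in heifer 9 and 1327 in heifer 14. At day 16 it had 1553 CPM in heifer 4, 1585 in heifer 19, 2455 in heifer 1, 2700 in heifer 12 and 3408 in heifer 6. The groups did not overlap, although heifer 14 came close to the lowest day 16 heifers while the other 4 day 13 heifers were far below them. The change was 2.35 log2 units (SE 0.59, edgeR adjusted p = 0.0314). Without heifer 14 it was 3.26 (edgeR adjusted p = 0.000985), and without heifer 6 it was 2.18 and did not pass (edgeR adjusted p = 0.0808). Over all 27 alternatives the adjusted p ran from 7.09e-05 to 0.162 and missed the threshold in 12, so this call depended on the settings while its direction did not. A second transcript that rose had almost the same values, from 401 CPM at day 13 to 1990 CPM at day 16, with a log2 fold change of 2.31. Shared reads between identifiers could not be checked, since no source used here says how the authors counted reads of overlapping transcripts.

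In cyclic heifers the fitted change of ENSBTAT00000012035 was negative and did not pass. The transcript had 338 ± 248 CPM (SD, n = 5) at day 13 and 170 ± 65.6 CPM (n = 5) at day 16 without a conceptus, which is -0.99 on the log2 scale (SE 0.58, edgeR adjusted p = 0.436). Cyclic day 13 heifers 18 and 5 had 650 and 551 CPM, while the others of that group had 113 to 248 CPM. The cyclic day 16 heifers had 87.0 to 242 CPM, so the higher cyclic mean at day 13 rested on heifers 18 and 5. The difference between the changes in pregnant and cyclic heifers was 3.34 log2 units (95% interval 1.72 to 4.95), and it too did not pass over all transcripts (edgeR adjusted p = 0.107). This interval and those of the differences below are nominal, and narrower than the distribution used by the test would give.

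The largest fitted rise belonged to ENSBTAT00000004084, a transcript that was close to absent at day 13. Its counts at day 13 were 3 in heifer 11, 3 in heifer 14, 0 in heifer 2, 0 in heifer 20 and 5 in heifer 9, which corresponds to 0 to 1.34 CPM. At day 16 it had 6.35 CPM in heifer 1, 8.12 in heifer 12, 14.5 in heifer 19, 20.3 in heifer 4 and 76.4 in heifer 6. Every day 16 heifer lay above every day 13 heifer, and heifer 6 was far above the rest. The change was 4.80 log2 units (SE 0.88, edgeR adjusted p = 0.00280), and without heifer 6 it was 3.84 (edgeR adjusted p = 0.00292). The same transcript rose in cyclic heifers, with 1.07 ± 1.73 CPM (SD, n = 5) at day 13 and 24.3 ± 11.9 CPM (n = 5) at day 16, which is 4.43 log2 units (SE 0.83, edgeR adjusted p = 0.00625). The difference between the 2 changes was 0.37 log2 units, with a 95% interval of -2.48 to 3.22 that is too wide to show that they were alike.

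The largest fold among abundant and separated transcripts that fell belonged to ENSBTAT00000006144. At day 13 it had 56.5 CPM in heifer 9, 191 in heifer 2, 220 in heifer 11, 280.2 in heifer 20 and 358 in heifer 14. At day 16 it had 2.38 CPM in heifer 1, 18.2 in heifer 19, 18.3 in heifer 6, 20.7 in heifer 4 and 37.4 in heifer 12. The groups did not overlap, with heifer 9 the lowest at day 13 and heifer 1 the lowest at day 16. The change was -3.43 log2 units (SE 0.50, edgeR adjusted p = 0.000374), and the transcript passed under all 27 alternatives. It also fell in cyclic heifers, with 125 ± 31.1 CPM (SD, n = 5) at day 13 and 15.1 ± 9.95 CPM (n = 5) at day 16, which is -3.02 log2 units (SE 0.50, edgeR adjusted p = 0.00274). The difference between the changes was -0.41 (95% interval -1.75 to 0.93).

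A pair of transcripts with larger fitted falls rest on very few reads. They had 77 and 71 counts over the 5 day 13 heifers and 2 counts each over the 5 day 16 heifers. The ratio, day 13 over day 16, was 35.9 for the first, with an exact 95% interval of 9.61 to 302, and 33.1 for the second, with 8.83 to 279. These intervals cover counting error only.

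ENSBTAT00000013663 was the most abundant transcript that fell with no overlap between days. It had 1577 to 1873 CPM at day 13, with a median heifer of 1630 CPM, and 978 to 1268 CPM at day 16, with a median heifer of 1120 CPM. The values within each day were close to each other, and the change was small against those above. The change was -0.58 log2 units (SE 0.13, edgeR adjusted p = 0.00910). In cyclic heifers it had 1463 ± 232 CPM (SD, n = 5) at day 13 and 997 ± 186 CPM (n = 5) at day 16, which is -0.55 log2 units (SE 0.13, edgeR adjusted p = 0.0258). The difference between the changes was -0.03, with a 95% interval of -0.39 to 0.33. One transcript that fell was more abundant still, at 3016 CPM at day 13 and 1355 CPM at day 16, but its lowest day 13 heifer, at 2017 CPM, lay below its highest day 16 heifer, at 2105 CPM.

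**Figure D3:**
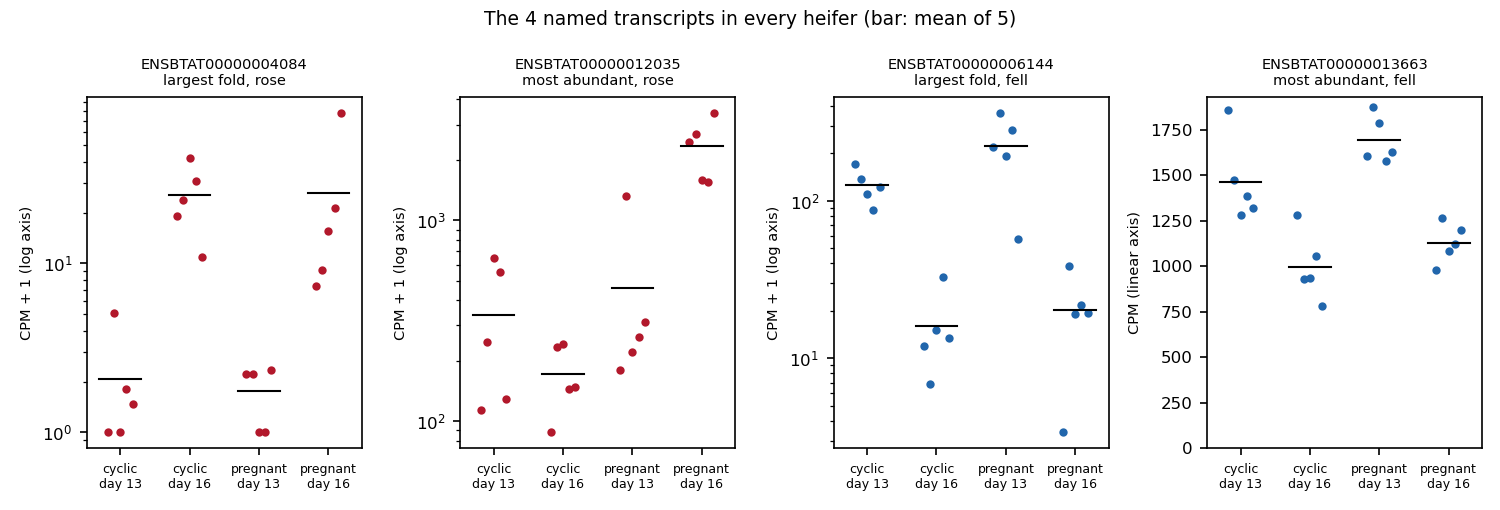
Points give ENSBTAT00000004084, ENSBTAT00000012035, ENSBTAT00000006144 and ENSBTAT00000013663 in each of 20 heifers, and the bar is the mean of 5; the first 3 panels show CPM + 1 on a log axis and the last shows CPM on a linear axis. ENSBTAT00000012035 is high in pregnant day 16 heifers and in pregnant day 13 heifer 14 (1327 CPM), while the other 3 move the same way between days in cyclic and pregnant heifers.

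Transcripts that fell in pregnant heifers mostly had negative changes in cyclic heifers too, whereas those that rose had cyclic changes of either sign. The cyclic day change has no library in common with the pregnant one, although both come from 1 fit with shared scaling and dispersion estimates. The days were also spread unevenly over the run codes in both states, as given below. In cyclic heifers 71 transcripts rose (0.479% of those tested) and 184 fell (1.24%), together 1.72%. Of the 313 transcripts that fell in pregnant heifers, 286 (91.4%) had a negative fitted change in cyclic heifers, where 49.5% of all transcripts tested did. The median cyclic change of the 313 was -0.56, and 101 of them fell past the threshold, which is 32.3% of the pregnant and 54.9% of the cyclic list. Of the 274 that rose in pregnant heifers, 145 (52.9%) had a positive fitted change in cyclic heifers, with a median of 0.06. Of these, 19 rose past the threshold, which is 6.93% of the pregnant and 26.8% of the cyclic list, and 1 fell past it.

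The size of the pregnant change sorted the cyclic changes further. For falls of under 1.5-fold, 1.5 to 2-fold, 2 to 4-fold and 4-fold and over in pregnant heifers, the median log2 change in cyclic heifers was -0.22, -0.34, -0.95 and -2.21, and all 38 in the last class were negative. For rises of the same 4 classes the median log2 change in cyclic heifers was 0.14, 0.18, -0.02 and -0.82, and in the last class 15 of 55 were positive. In that class 46 of 55 transcripts were higher in every day 16 than in every day 13 pregnant heifer, against 2.14% of all tested. The same heifers chose the class, so this count is a description. Over these 55, cyclic day 13 heifers 5, 18 and 13, all of run B, had a mean log2 CPM of 4.27, 4.26 and 3.62. No cyclic day 16 heifer was in run B. In run A the mean was 2.86 (heifer 10) at day 13 and 3.00 (heifer 15) at day 16. In run C it was 3.29 (heifer 8) at day 13 and 3.47 to 3.74 at day 16. How far the median of -0.82 rests on heifers 5 and 18 was not tested. Over all alternatives, including the sum of the libraries of heifer 12, the median cyclic change lay between -0.95 and -0.60 for rises of 4-fold and over and between -2.42 and -1.94 for falls of 4-fold and over. The share of transcripts that rose and had a positive cyclic change moved more, from 15.3% when tested against a fold of 1.5 to 64.0% with library 2 alone for heifer 12. It was 59.9% with the libraries of heifer 12 summed and 41.2% without heifer 6, while the corresponding share of falls lay between 88.0% and 100% in all alternatives.

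**Figure D4:**
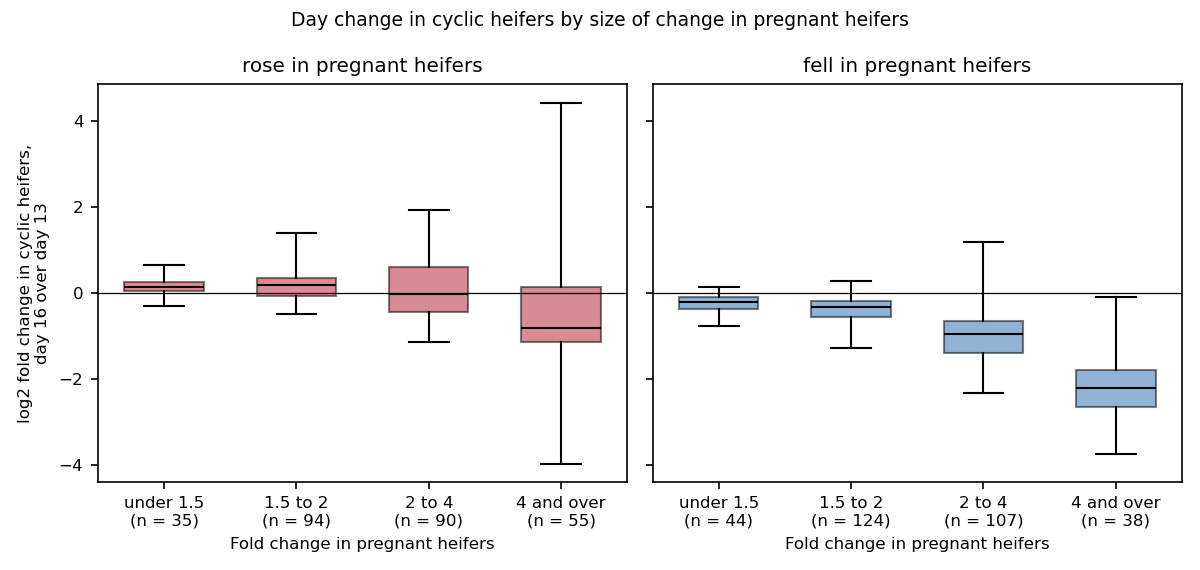
Boxes show the median and quartiles of the log2 fold change in cyclic heifers, day 16 over day 13, with whiskers to the extremes, for transcripts grouped by the size of their change in pregnant heifers. Boxes for transcripts that fell move down with size, from a median of -0.22 to -2.21, whereas boxes for transcripts that rose stay near 0 and reach -0.82 in the class of 4-fold and over.

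A direct test of the difference between the day changes in pregnant and cyclic heifers passed for 71 transcripts, 0.479% of those tested. The change was more positive in pregnant heifers for 70 (0.472%) and more negative for 1 (0.00674%). Among the 274 that rose 66 passed this test and among the 313 that fell 1 passed, but the difference contains the pregnant change that chose both lists. Of the 55 with rises of 4-fold and over 31 passed, of the 90 with 2 to 4-fold 28, of the 94 with 1.5 to 2-fold 7 and of the 35 below that 0. The 66 had a median log2 change of 1.90 in pregnant and -0.68 in cyclic heifers, and 65 of them had a negative fitted change in cyclic heifers. Their share of the counts in pregnant heifers was 0.339% ± 0.105 (SD, n = 5) at day 13 and 1.21% ± 0.343 (n = 5) at day 16. In cyclic heifers the share was 0.358% ± 0.0863 (n = 5) at day 13 and 0.255% ± 0.0276 (n = 5) at day 16. The test that chose the 66 contains the cyclic change with its sign turned. The negative cyclic changes and the lower cyclic share at day 16 are therefore a description. Only 1 of the 66 was called in the cyclic contrast. The other 208 that rose had a median change of 0.87 in pregnant and 0.23 in cyclic heifers, and no difference between these changes was established. The 1 transcript that fell and passed had 5.68 CPM at day 13 and 1.93 CPM at day 16 in pregnant heifers, and 1.70 and 3.76 CPM in cyclic heifers.

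The level of each list was followed heifer by heifer as the mean log2 CPM over its transcripts. For the 55 that rose by 4-fold and over, the day 13 heifers had 3.21 (heifer 2), 3.21 (heifer 11), 3.42 (heifer 20), 3.44 (heifer 9) and 4.58 (heifer 14). The day 16 heifers had 5.72 (heifer 19), 5.84 (heifer 4), 6.07 (heifer 12), 6.38 (heifer 1) and 6.69 (heifer 6). Heifer 14 thus stood more than 1 log2 unit above the other pregnant day 13 heifers on the strongly rising transcripts. On the 129 that rose by less than 2-fold it had 6.03, among 5.95 to 6.08 in its group, and did not stand apart. In cyclic heifers the 55 transcripts had 3.66 ± 0.61 (SD, n = 5) at day 13 and 3.46 ± 0.28 (n = 5) at day 16. Cyclic day 13 heifers 5 and 18, at 4.27 and 4.26, lay near heifer 14. The other cyclic day 13 heifers had 2.86 (heifer 10), 3.29 (heifer 8) and 3.62 (heifer 13). A high level at day 13 was thus not particular to heifer 14.

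For the 38 that fell by 4-fold and over, the day 13 heifers had 4.74 (heifer 9), 5.14 (heifer 20), 5.38 (heifer 11), 5.53 (heifer 2) and 5.63 (heifer 14). The day 16 heifers had 2.27 (heifer 1), 2.77 (heifer 19), 2.85 (heifer 6), 3.11 (heifer 12) and 3.17 (heifer 4). Heifer 14 was thus the highest day 13 heifer on the falling transcripts too, and lay farthest from the day 16 heifers there, while heifer 9 lay closest to them. In cyclic heifers the 38 had 4.85 ± 0.33 (SD, n = 5) at day 13 and 2.94 ± 0.16 (n = 5) at day 16, and the cyclic day 16 heifers, at 2.75 to 3.18, overlapped the pregnant ones, at 2.27 to 3.17.

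**Figure D5:**
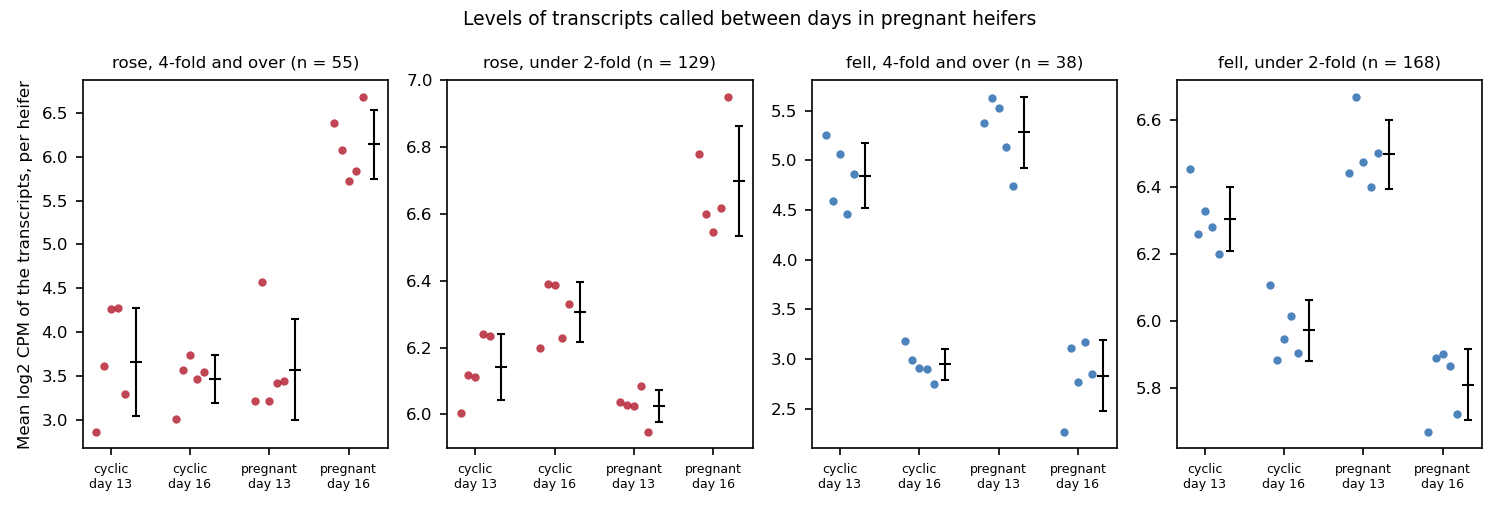
Points give the mean log2 CPM per heifer over the transcripts that changed in pregnant heifers, by direction and size, and bars give mean and SD of 5 heifers; the vertical axes differ between panels and do not start at 0. Taken as a mean, the 55 strongly rising transcripts are high in pregnant day 16 heifers alone among the groups, from 5.72 to 6.69, and these heifers helped to choose them. Pregnant day 13 heifer 14 is at 4.58, and cyclic day 13 heifers 5 and 18 are at 4.27 and 4.26. Taken singly, 15 of the 55 had a positive fitted change in cyclic heifers. The 38 strongly falling transcripts are low at day 16 in both cyclic and pregnant heifers.

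These lists were chosen with the same heifers, so each pregnant heifer was also left out and placed by lists chosen from the other 19. The filter and the scaling of the values still came from all 20 heifers. On 165 to 291 rising transcripts chosen in this way, the day 16 heifers left out lay 0.87 (heifer 19) to 1.77 (heifer 6) log2 units above the mean of the day 13 heifers. The day 13 heifers left out lay between -0.02 and 0.12 of the other 4, except heifer 14, which lay 0.69 above them. Heifer 14 was 46.0% of the way from the mean of the other day 13 heifers to the mean of the day 16 heifers on rising transcripts, and -6.17% of the way on falling ones. On falling transcripts the day 16 heifers left out lay -1.45 (heifer 1) to -0.88 (heifer 12) from the mean of the day 13 heifers. Heifers 9 and 20 lay -0.39 and -0.29 from the other day 13 heifers, which is 32.2% and 25.8% of the way to day 16. Every day 16 heifer left out lay nearer to the other day 16 heifers than to the day 13 mean on both kinds of list. The heifers that chose each list also set its day means. This can widen the gap between the means and shift a left-out heifer towards the other day, so the percentages are a description. Heifer 14, the farthest towards day 16 on rising transcripts, was thus not ahead on falling ones, whereas heifer 20 lay second on both, at 9.29% of the way on rising transcripts.

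Single heifers also held the extreme values unevenly. At day 16 heifer 6 was the highest of its group for 145 of the 274 transcripts that rose and heifer 1 for 95, while heifer 19 was the lowest for 112. Heifer 1 was the lowest of its group for 135 of the 313 that fell. At day 13 heifer 14 was the highest of its group for 120 of those that rose and for 131 of those that fell. Heifer 1 had the fewest counts, 1256870, and heifer 6 the lowest TMM scaling factor, 0.935, followed by heifer 14 with 0.963; the part of depth and scaling in these ranks was not tested. The spread between heifers over all transcripts tested, as the median SD of log2 CPM, was 0.33 at day 13 and 0.28 at day 16. For transcripts that rose by 4-fold and over it was 0.75 and 0.61, and for those that fell by 4-fold and over 0.63 and 0.61.

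The names of the deposited files carry a 6-digit code and a lane-like number, and the code split the pregnant heifers into 3 sets, called runs A, B and C here. What the code stands for is not stated. Run A held 2 heifers of each day, run B 2 of day 13 and 1 of day 16, and run C 1 of day 13 and 2 of day 16. For the transcripts that rose, the median log2 difference between days was 0.92 in run A, 0.81 in run B and 1.24 in run C, and 274, 270 and 274 of the 274 were higher at day 16. For those that fell it was -0.996, -0.78 and -0.84, and 313, 313 and 302 of the 313 were lower. The same heifers chose the lists, so these values describe how the changes were spread over runs. With the run code as a term in the model 206 rose and 276 fell, of which 200 and 253 were among the main calls. The cyclic heifers were spread less evenly. At day 13 heifer 10 was in run A, heifers 5, 13 and 18 in run B, and heifer 8 in run C. At day 16 heifer 15 was in run A, heifers 3, 16 and 17 in run C, and heifer 7 in run D. Day and run code were thus partly tied. With the run term the cyclic contrast gave 118 calls, against 255, and the direct test of the difference 50, against 71.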

How the data were processed

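The authors deposited raw read counts for Ensembl bovine transcript identifiers, 1 file for each of 21 libraries, with no header. The submitters' processing notes name CASAVA without a version or a role. The aligner, counting program and annotation release were not given in the sources used here, nor was the genome build. Groups came from the sample labels. The members and lists were chosen with earlier results of these data known.

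Counts were analysed with edgeR 4.0.16 in R 4.3.3. The filterByExpr function (minimum count 10, minimum total 15) kept 14826 of 28054 identifiers; 6507 had no count in any library. TMM factors and a robust quasi-likelihood negative binomial fit with 4 group means over 20 heifers were used, with library 1 for heifer 12. Transcripts were called at a Benjamini-Hochberg adjusted p under 0.05. Each standard error is the fold change over the root of its F statistic, and intervals of differences are 1.96 standard errors. Log2 CPM used a prior count of 2. On simulated data for this contrast with 14661 transcripts 67% of 2-fold and 91% of 4-fold changes were found, with 7 false calls.

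Named transcripts were called, had no overlap between days and at least 3 counts in each library of the higher group. In each direction one had the largest fold among those at 10 CPM or more in the higher group and 4 counts or more in the lower, and the other the highest CPM. DESeq2 1.42.0, limma 3.58.1, other scalings, filters, libraries and left-out heifers were alternatives.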

Additional observations from a re-analysis of the deposited data

Results flagged for a closer look

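In 32 sets of 5 values from the pregnant groups, 6 values lay far from those of the other 4 heifers. Chance gives about 1 in 20 for independent sets of normal values. These sets include CPM values and lists chosen from the same heifers, so that rate is no measure for them. The 6 values overlap in content, since 5 come from pregnant day 13 heifer 14 and from transcripts that rose. Heifer 14 had 1327 CPM of ENSBTAT00000012035, against at most 312 CPM in the other 4. Its mean over the 274 transcripts that rose was 5.36 log2 CPM against at most 5.05, and they took 2.40% of its counts against at most 1.86%. Over the 55 that rose by 4-fold and over its mean was 4.58 log2 CPM against at most 3.44, and they took 0.534% of its counts against at most 0.152%. Cyclic day 13 heifers, which were outside these sets, reached 4.27 (heifer 5) and 4.26 (heifer 18) log2 CPM over the same 55, with 0.283% and 0.323% of their counts. Without heifer 14 these 55 took 0.133% ± 0.0167 (SD, n = 4) of the counts at day 13 of pregnancy. Pregnant day 16 heifer 6 had 76.4 CPM of ENSBTAT00000004084, against at most 20.3 CPM in the other 4.

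The change between days differed between pregnant and cyclic heifers for 71 transcripts by the direct edgeR test.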

How the results depend on the processing

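No paired analysis was possible because no heifer number is shared between groups. In 24 of 27 alternatives the count of transcripts called between days stayed within 1.5 times 587, from 430 with only the 10 pregnant heifers to 800 with DESeq2. It was 798 with library 2 alone for heifer 12 and 663 with library 2 added to heifer 19. Tested against a fold of 1.5, 119 transcripts were called, 59 that rose and 60 that fell. Leaving out 1 pregnant heifer gave 368 to 574 calls, 165 to 291 rises and 203 to 337 falls, the lowest of each without heifer 6. Leaving out heifers 14 and 6 together, added after the data had been seen, gave 324 calls, 164 rises and 160 falls. The direct test of the difference between states gave 125 calls with DESeq2, 50 with the run code as a term and 42 against a fold of 1.5. With 1 heifer left out it gave 53 to 99. In cyclic heifers the calls were 440 with DESeq2, 489 with limma voom and quality weights, 118 with the run code as a term and 61 against a fold of 1.5, against 255; leaving out 1 pregnant heifer gave 243 to 299. The cause of these differences was not tested. ENSBTAT00000004084 and ENSBTAT00000006144 passed under all 27 alternatives. ENSBTAT00000013663 missed the threshold against a fold of 1.5. No fitted change of the 4 named transcripts turned its direction, but they had been picked for no overlap between days. The exact intervals of count ratios, from counts pooled over the heifers of each day, and the floors cover counting error only. They leave out the spread between heifers. The reads carry no molecular identifiers, so the counts are of reads and not of molecules. Intervals of the differences between day changes come instead from the standard errors of the edgeR quasi-likelihood fit.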

Other observations

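The 587 called identifiers are fewer independent measurements than their number. Among them 2 had the same counts as another tested identifier in every heifer. A further comparison of all pairs with at least 100 counts found 104 pairs whose counts over the 20 heifers stayed in 1 ratio, by a chi-square statistic under 0.5 for each degree of freedom. These pairs joined 149 of the 587 identifiers into 58 groups. Whether they are transcripts of 1 gene that share reads was not tested.

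The transcripts nearest to the threshold were ordinary in size. The last 2 called had log2 fold changes of -0.64 and -0.59 (edgeR adjusted p = 0.0497 and 0.0499), and the first 2 not called had -1.20 and 0.82 (edgeR adjusted p = 0.0501 and 0.0501).

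Over the 101 transcripts that fell in both states, the mean log2 CPM was 6.57 ± 0.18 (SD, n = 5) in pregnant and 6.45 ± 0.23 (n = 5) in cyclic heifers at day 13, and 5.13 ± 0.21 (n = 5) and 5.06 ± 0.13 (n = 5) at day 16. Over the 19 that rose in both it was 4.46 ± 0.20 (n = 5) and 4.40 ± 0.36 (n = 5) at day 13, and 5.82 ± 0.47 (n = 5) and 5.998 ± 0.29 (n = 5) at day 16. Both changes chose these lists, so the values are a description.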
